A study of Ovis aries with 12 samples.

Results

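The comparison set 4 sheep whose mitral valve leaflets were taken 8 weeks after an experimental myocardial infarction (MI) against 3 sheep sampled before any infarction, 7 of the 12 libraries of the series. The libraries were chosen by their labels for time alone: those marked pre-MI, and those marked 8 weeks post-MI with or without ischemic mitral regurgitation (IMR), in which blood flows back through a valve that no longer closes fully. The animals were adult Dorset sheep of 30 to 40 kg. In the infarcted animals branches of the circumflex coronary artery had been tied off for good, a procedure the labels describe as damaging about 20% of the left ventricle, including the posterior papillary muscle that anchors the valve. At 8 weeks 2 animals had IMR on echocardiography and 2 had none, and the pre-MI animals had none. No group of animals operated on without an infarct is named in the labels, so the time after surgery and the infarct cannot be told apart. The 5 remaining libraries, taken 4 weeks after infarction, entered the statistical models, where they add to the estimate of the spread between animals and, in the model with the count share, to the slope on the share.

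A mitral leaflet is a thin sheet of collagen, elastic fibres and proteoglycans kept by valve interstitial cells and covered by endothelium. Heart muscle of the atrium reaches into its base, and in adult life the interstitial cells are mostly quiescent. After a posterior infarct the papillary muscle is displaced and the leaflet is pulled out of its usual shape, and interstitial cells under such load can become active, contractile and matrix producing. Each library came from poly-A RNA of the anterior leaflet of 1 animal, without separating the cell types. In such bulk samples, fewer cells of a type and less RNA per cell cannot be told apart. The files gave Ensembl sheep gene IDs, and 0 of them were paired with a gene name by the names table used here, so the leaflet label was not checked against marker genes and genes are described by their values.

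No gene passed edgeR's quasi-likelihood test for a difference between the 8-week and pre-MI leaflets, and DESeq2, run as an alternative, passed 2, whereas the libraries of both times divided into the same pair of unlike kinds. One kind, pre-MI replicate 2, 8-week replicate 4 without IMR and 8-week replicate 1 with IMR, had a high share of its counts on the 37 lowest-numbered gene IDs. What these 37 IDs encode was not identified from the files used here, so the share is described only as a share of counts. The other kind comprised pre-MI replicates 3 and 4, 8-week replicate 3 without IMR and 8-week replicate 2 with IMR. Library totals ran from 12280027 to 19175100 counts over the 7 libraries, and 15321 to 17102 genes had counts. Counts were tested with edgeR's quasi-likelihood test over 14804 genes, and levels are given as CPM, counts relative to the library total after scaling by TMM factors, which are comparable between libraries but not between genes of different length.

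The share of counts on the 37 lowest-numbered IDs was 5.97%, 2.38% and 0.928% in pre-MI replicates 2, 3 and 4. At 8 weeks it was 0.954% and 11.3% in replicates 3 and 4 without IMR, and 7.14% and 2.04% in replicates 1 and 2 with IMR. High and low shares therefore occurred before infarction, after infarction without a leak and after infarction with one. Counting error was negligible, with an exact 95% binomial interval of 0.923% to 0.934% for the lowest share, and this interval covers the sampling of reads only. The mean share was 5.35% ± 4.78 (SD, n = 4) at 8 weeks and 3.09% ± 2.60 (SD, n = 3) pre-MI. On the scale of log2 odds the 8-week mean was higher by 0.62, which did not differ beyond the spread between animals (two-sided exact permutation p = 0.629 over 35 splits, where the smallest possible p is 0.0286). Without pre-MI replicate 4 the difference was -0.07, and without 8-week replicate 4 without IMR it was 0.03. In the 5 libraries at 4 weeks the share was 0.957% to 1.88%.

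**Figure D1:**
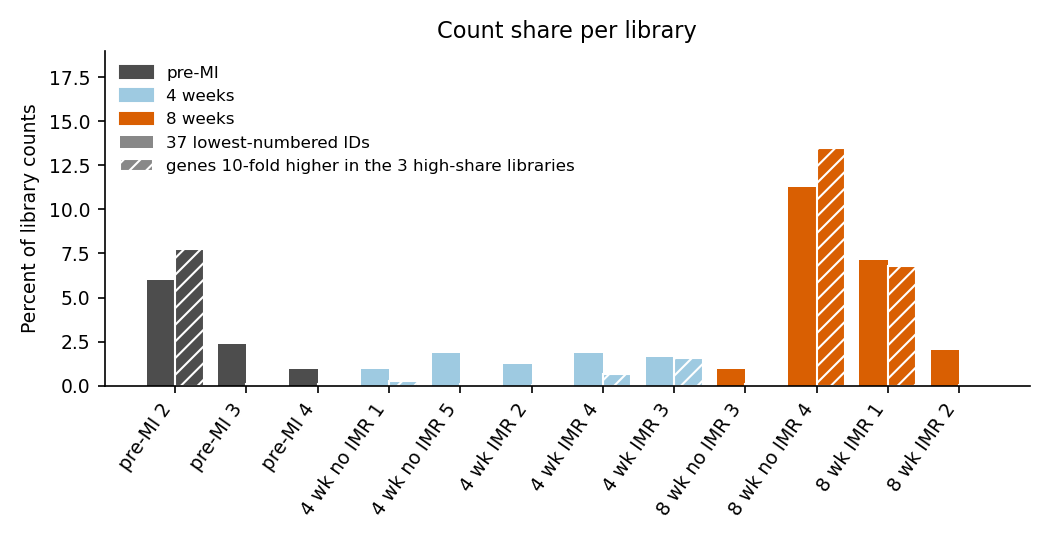
Percent of each library's counts (vertical axis) on the 37 lowest-numbered gene IDs (plain bars) and on the 216 other genes that were at least 10-fold higher in each of the 3 high-share libraries than in any of the 4 low-share ones (hatched bars), for the 12 libraries; colours mark pre-MI, 4 weeks and 8 weeks. Both bars stand high in pre-MI replicate 2, 8-week replicate 4 without IMR and 8-week replicate 1 with IMR, and 4-week shares of the 37 IDs lie between 0.957% and 1.88%.

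Of the 37 IDs, 21 had no count in any of the 7 libraries, 16 had at least 1, and 15 passed the filter on low counts. All 15 were higher in each of the 3 high-share libraries than in any of the 4 low-share ones. The 15 are not independent of one another, since all sum into the share. The ID of rank 16 by number took the most counts, with 17091, 5015 and 1735 CPM in pre-MI replicates 2, 3 and 4. After infarction it had 1881 and 46787 CPM without IMR (replicates 3 and 4), and 19918 and 4459 CPM with IMR (replicates 1 and 2). It alone held 38.1% of the counts of the 37 IDs in the library with the highest share, against 19.4% to 27.9% in the other libraries of the comparison.

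The ID of rank 37 spanned the widest range, 85.6-fold between its lowest and highest library, against a median of 12.9-fold over the 15 IDs. Before infarction it had 160, 42.8 and 16.1 CPM in replicates 2, 3 and 4. The 8-week values were 13.7 and 1170 CPM in replicates 3 and 4 without IMR, and 461 and 49.2 CPM in replicates 1 and 2 with IMR. Within the 37 IDs it made up 0.953% and 0.646% of the counts in the high-share 8-week libraries and 0.261% in the high-share pre-MI library. In the low-share libraries it made up 0.141% to 0.267%. The ID of rank 21 went the other way among the high-share libraries, with 54.5 CPM in pre-MI replicate 2 against 6.06 and 7.97 CPM in the 8-week libraries, and 2.27 to 4.38 CPM in the low-share libraries.

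For 8 weeks against pre-MI, 14 of the 15 tested IDs had a higher mean at 8 weeks and 1 a lower one, with fitted log2 fold changes from -1.94 (rank 21) to 2.41 (rank 37) and a median of 0.76. The median over all genes tested was 0.04, and 54.3% of them had a log2 fold change above 0. None passed an adjusted p of 0.05 in edgeR, and 0 had an unadjusted p under 0.05, where 1.93% of all genes did; none of the alternative models, DESeq2 included, passed any of them either. Since each time holds high-share and low-share libraries, the times had to overlap for each of these 15. The standard errors ran from 0.71 to 1.41 on the log2 scale, so that the intervals were wide.

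**Figure D2:**
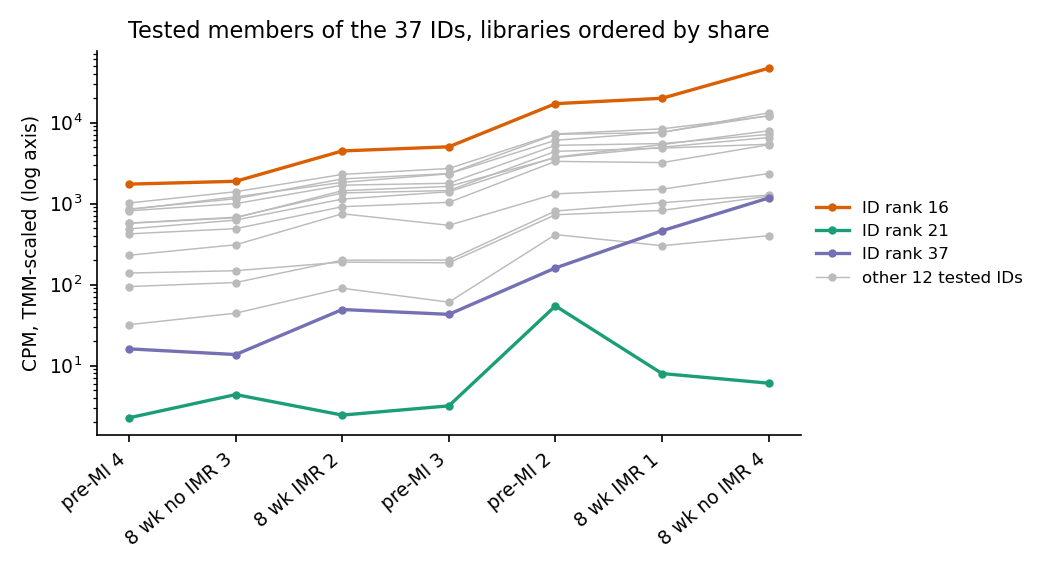
CPM (log axis) of the 15 tested members of the 37 lowest-numbered IDs in the 7 libraries, ordered from left to right by the share of the 37 IDs; each line is 1 ID, with ranks 16, 21 and 37 in colour. All lines are higher in the 3 libraries on the right, and rank 21 peaks in pre-MI replicate 2 at 54.5 CPM.

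Over all 14804 genes tested the libraries divided in the same way. The 15 tested IDs of the 37 are among these genes, so the division is not independent of the share. Over log2 CPM of the 7 libraries, the first principal component held 57.0% of the variance. Its scores were 68.7, 108 and 68.0 in the 3 high-share libraries and -67.7 to -48.3 in the 4 low-share ones. The second component held 14.3% and set the high-share libraries apart from one another, with pre-MI replicate 2 at 69.8, 8-week replicate 4 at -8.27 and 8-week replicate 1 at -59.6. The low-share libraries of both times lay together on the first component and spanned -15.1 to 19.1 on the second.

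**Figure D3:**
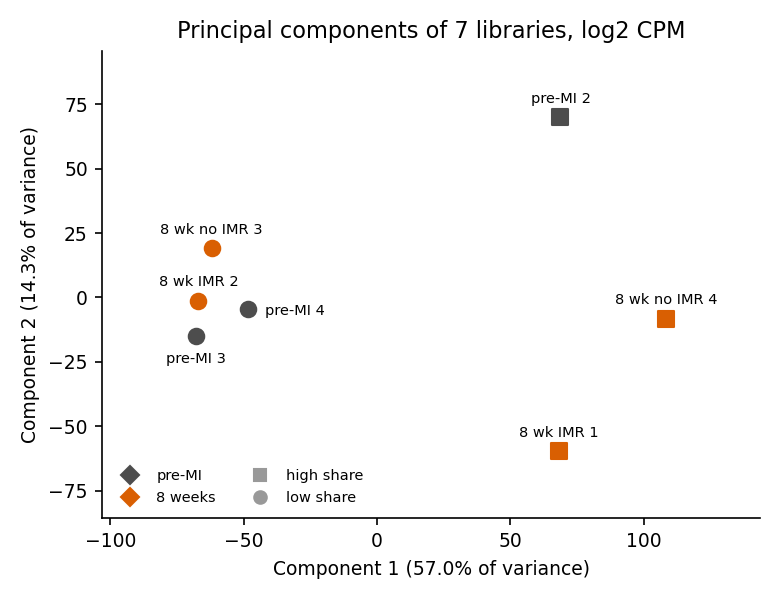
Scores of the 7 libraries on the first principal components of log2 CPM (horizontal axis, 57.0% of variance; vertical axis, 14.3%). Colour marks pre-MI or 8 weeks and shape marks a high or low share of the 37 lowest-numbered IDs; the 4 low-share libraries of both times lie together on the left at scores of -67.7 to -48.3.

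Correlations between libraries gave the same order. Across the genes tested, Pearson's r of log2 CPM averaged 0.955 (0.952 to 0.962) over the 6 pairs of low-share libraries, 0.928 over the 3 pairs of high-share libraries and 0.860 (0.821 to 0.891) over the 12 mixed pairs. By time it averaged 0.901 over the 3 pre-MI pairs, 0.881 over the 6 pairs at 8 weeks and 0.904 over the 12 pairs between times. These values are across genes, which are not independent replicates, and are given as a description. The median SD of log2 CPM per gene was 0.48 within the 8-week group, which holds 2 high-share libraries of 4, and 0.40 within the pre-MI group, which holds 1 of 3.

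Apart from the 37 IDs, 216 of 14789 genes (1.46%) were at least 10-fold higher in each high-share library than in any low-share library, and 1 gene was 10-fold lower in that sense. With no fold required, 2417 genes were higher and 1015 lower in all 3 high-share libraries than in any of the 4 low-share ones, 23.2% of the genes. All these genes, with or without a fold required, were chosen by their values in the 7 libraries and are described without a test. The 216 genes at least 10-fold higher took 7.77% of the counts of pre-MI replicate 2, 13.5% of 8-week replicate 4 without IMR and 6.80% of 8-week replicate 1 with IMR. In the 4 low-share libraries they took 0.0607% to 0.118%. At 4 weeks they took 0.0522% to 1.59%, with the highest value in replicate 3 with IMR, whose share of the 37 IDs was 1.63%. The fifth most abundant gene of the 7 libraries outside the 37 IDs was of this kind, with 15622, 36.6 and 132 CPM in pre-MI replicates 2, 3 and 4. In the 8-week libraries it had 86.8 and 23011 CPM without IMR (replicates 3 and 4), and 10123 and 27.3 CPM with IMR (replicates 1 and 2). It was abundant or near its lowest level at both times, and its fitted difference between the times was 0.54 on the log2 scale, with a standard error of 2.41. For the 216 genes the median log2 fold change at 8 weeks was 1.08. Their median was -0.50 with the share in the model and was -0.43 over the 181 that could be tested in the low-share libraries. Whether the share of the 37 IDs and these genes come from a difference in the tissue taken, in its cells or in handling was not tested.

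The next comparison asked how many genes went with the share itself. The 37 IDs were removed, and the log2 odds of the share were added to the model of 12 libraries in 5 groups. With an adjusted p under 0.05 in edgeR, 475 of 14784 genes (3.21%) went with the share, 460 of them higher and 15 lower where the share was higher. The unadjusted p was under 0.05 for 2374 genes (16.1%). The median slope of the 460 genes was 0.93 log2 units per doubling of the odds, with a range of 0.38 to 4.42. The count depended on single libraries. It was 0 without pre-MI replicate 2, without 8-week replicate 3 without IMR or without 8-week replicate 4 without IMR, and the number under an unadjusted p of 0.05 was 955 to 2650 over the 12 omissions of a single library. Omitting 8-week replicate 1 with IMR left 43 genes, and omitting replicate 2 with IMR left 111. Fitted to the 7 libraries alone it was 648, and omitting single 4-week libraries gave 357 to 711. The share was computed from the same libraries as the genes, and nothing here shows what sets it.

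Of those 460 genes, 442 had a fitted log2 fold change above 0 for 8 weeks against pre-MI, with a median of 0.71. Over all genes tested in the main comparison 54.3% had a change above 0. The 8-week group holds 2 high-share libraries of 4 and the pre-MI group 1 of 3, and the genes were chosen for following the share in these same libraries, so these values are a description. With the share in the model the median of the 460 was -0.07, and in the low-share libraries it was -0.08 over the 428 that could be tested there. For the 15 genes lower with the share the corresponding medians were 0.18, 0.28 and 0.42.

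In the main comparison of 8 weeks with pre-MI, edgeR passed 0 of 14804 genes (0%) at an adjusted p of 0.05, and no adjusted p was below 0.99992. The unadjusted p was under 0.05 for 286 genes (1.93%), of which 161 had higher and 125 lower values at 8 weeks, where 740.2 would be 5% of the genes tested. The p-values were thus fewer near 0 than an even spread would give. Of the alternatives, DESeq2 passed 2 genes. They were ENSOARG00000004174, lower at 8 weeks and described below, and a gene higher at 8 weeks. The higher gene had a DESeq2 log2 fold change of 4.71 (DESeq2 adjusted p = 0.0182), and edgeR passed neither. The unadjusted count was 575 without pre-MI replicate 2 and 652 without 8-week replicate 3 without IMR.

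With the share in the model and the 37 IDs removed, 0 of 14784 genes passed in edgeR and 299 (2.02%) were under an unadjusted p of 0.05, 140 with higher and 159 with lower values at 8 weeks. Among the low-share libraries alone, 2 at 8 weeks against 2 pre-MI, 0 of 15026 genes passed in edgeR and 410 (2.73%) were under an unadjusted p of 0.05, 164 with higher and 246 with lower values. Among the high-share libraries there is 1 before infarction and 2 after, and no separate test was made. Of the 286 genes of the main comparison, 206 also had an unadjusted p under 0.05 with the share in the model and 85 in the low-share libraries. Direction was the same for 284 of the 284 that could be tested with the share in the model, and for 271 of 277 in the low-share libraries. These fits use the same libraries, so the shared genes are not an independent repeat.

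**Figure D4:**
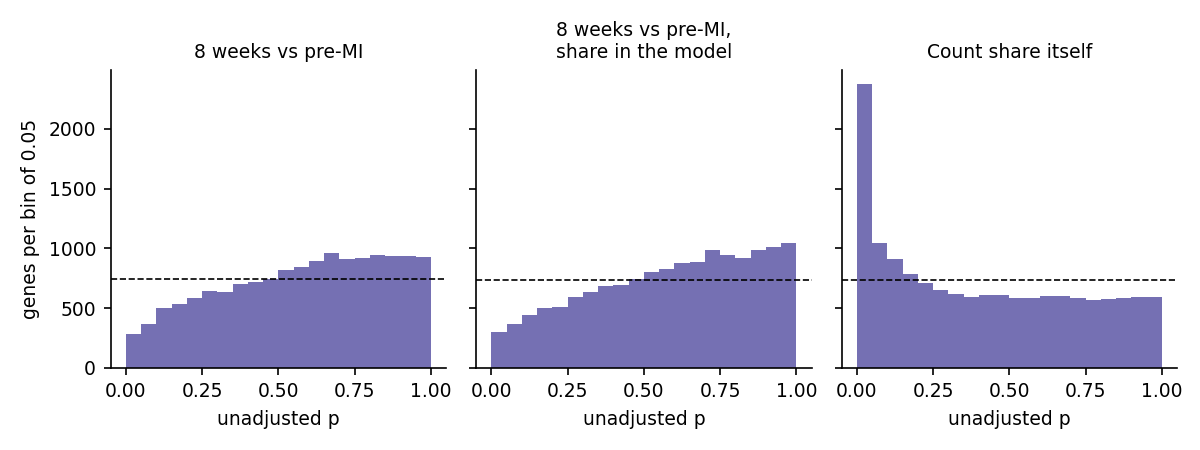
Number of genes (vertical axis) per bin of 0.05 in unadjusted p (horizontal axis) in edgeR, for 8 weeks against pre-MI (left), the same with the share in the model (middle) and the share itself (right); the dashed line is an even spread. The lowest bin holds 286 genes on the left, 299 in the middle and 2374 on the right.

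The spread between animals set how large a difference could have been seen. The 95% interval of the log2 fold change had a median half-width of 0.95, so that a typical gene had to differ by close to 2-fold for its interval to leave 0. These intervals are not adjusted for the number of genes tested. A larger difference was needed to pass the adjusted threshold. For 5112 genes (34.5%) the whole interval lay within a 2-fold change in either direction, and for 11511 genes (77.8%) within 4-fold. For the rest, larger changes at 8 weeks were not excluded by these data. Precision depended on abundance. Of the 1714 genes with a mean of 100 CPM or more, 52.2% had intervals within 2-fold, as had 49.5% of the 7612 genes at 10 to 100 CPM, 10.4% of the 4258 genes at 1 to 10 CPM and 0.328% of the 1220 genes under 1 CPM.

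The most abundant genes are given as a description. Among the 10 with the highest mean CPM outside the 37 IDs, 9 had a higher mean at 8 weeks, with fitted log2 fold changes of -0.14 to 0.54. Over all genes tested 54.3% had a fitted change above 0. In edgeR 0 of the 10 had an unadjusted p under 0.05, where 1.93% of all genes did. The 10 are too few genes to tell them from the rest. The most abundant had 28639, 22820 and 26653 CPM in pre-MI replicates 2, 3 and 4. The same gene had 45918 and 20520 CPM in 8-week replicates 3 and 4 without IMR, and 16558 and 34386 CPM in replicates 1 and 2 with IMR. The low-share 8-week libraries lay above all pre-MI libraries for this gene and the high-share ones below all of them. Its log2 fold change of 0.16 had a standard error of 0.57 (edgeR adjusted p = 0.99992).

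For 532 genes (3.59%) the 4 libraries at 8 weeks and the 3 pre-MI libraries did not overlap, 253 of them higher and 279 lower at 8 weeks. Of these, 166 also had a fitted change of over 2-fold, 101 higher and 65 lower, with a median size of 1.50 on the log2 scale. Both sets were chosen by their values in these same libraries, and none of their genes passed the adjusted threshold in edgeR. With the libraries freely exchangeable, a single gene would lie apart in a given direction with a probability of 0.0286, a single split among 35. The 3.59% covers both directions and lies below the sum of their probabilities. Genes are not independent and the libraries fall into 2 kinds, so the number of genes lying apart was not tested. A total of 1200 genes (8.11%) had a fitted change of over 2-fold, 857 higher and 343 lower. With the share in the model 516 were higher and 486 lower. In the low-share libraries, 2 at 8 weeks against 2 pre-MI, 671 were higher and 1060 lower. Whether the share set the excess of higher values was not tested.

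The genes with the smallest p in each direction are given in full, although none passed the adjustment in edgeR. They were chosen from all genes tested for this same difference. The choice favours genes whose groups lie apart, so that the gaps between groups below are a description and not support for a change. ENSOARG00000004174 had 291, 186 and 189 CPM in pre-MI replicates 2, 3 and 4. Its 8-week values were 93.1 and 103 CPM without IMR (replicates 3 and 4), and 92.1 and 78.1 CPM with IMR (replicates 1 and 2). Every 8-week library lay below every pre-MI library, and high-share and low-share libraries did not separate at 8 weeks. The means were 91.6 ± 10.3 CPM (SD, n = 4) and 222 ± 60.0 CPM (SD, n = 3), a log2 fold change of -1.28 (95% interval -1.85 to -0.71, edgeR adjusted p = 0.99992). It was -1.33 with the share in the model and -1.15 in the low-share libraries. By DESeq2 its adjusted p was 0.00809, past the threshold, and the other alternatives gave an adjusted p of 0.999 to 1. The 4-week libraries had 131 to 222 CPM, with a median of 153, all above the 8-week libraries.

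ENSOARG00000004963 was the other gene with lower values at 8 weeks. Before infarction it had 41.1, 65.8 and 77.5 CPM in replicates 2, 3 and 4. After infarction it had 19.4 and 24.7 CPM without IMR (replicates 3 and 4), and 21.7 and 20.7 CPM with IMR (replicates 1 and 2). The 8-week values lay within a narrow band below all pre-MI values, whatever the share or the leak. The means were 21.6 ± 2.28 CPM (SD, n = 4) and 61.5 ± 18.6 CPM (SD, n = 3), and the log2 fold change was -1.51 (standard error 0.32, edgeR adjusted p = 0.99992). It was -1.42 with the share in the model and -1.85 in the low-share libraries. At 4 weeks it ranged from 33.1 to 90.6 CPM, which overlapped the pre-MI range.

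ENSOARG00000008063 had higher values at 8 weeks. Its pre-MI values were 4.26, 7.78 and 4.39 CPM in replicates 2, 3 and 4, from 61 to 159 counts. The 8-week libraries had 21.3 and 18.8 CPM without IMR (replicates 3 and 4), and 23.5 and 18.9 CPM with IMR (replicates 1 and 2), from 223 to 402 counts. The groups did not overlap, and the lowest 8-week library was above the highest pre-MI library by more than the spread within either group. The means were 20.6 ± 2.25 CPM (SD, n = 4) and 5.48 ± 1.99 CPM (SD, n = 3), and the log2 fold change was 1.91 (standard error 0.47, edgeR adjusted p = 0.99992). It was 1.94 with the share in the model and 1.70 in the low-share libraries. At 4 weeks it had 9.04 to 31.8 CPM with a median of 10.4, all above the pre-MI libraries.

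ENSOARG00000012998 was low at both times, with 1.89, 2.59 and 3.29 CPM in pre-MI replicates 2, 3 and 4, from 27 to 53 counts. The libraries at 8 weeks had 3.86 and 9.68 CPM without IMR (replicates 3 and 4), and 10.3 and 9.40 CPM with IMR (replicates 1 and 2). All 4 libraries lay above the pre-MI libraries, but replicate 3 without IMR did so narrowly. The means were 8.30 ± 2.98 CPM (SD, n = 4) and 2.59 ± 0.705 CPM (SD, n = 3), and the log2 fold change was 1.65 (standard error 0.40, edgeR adjusted p = 0.99992). It was 1.51 with the share in the model and 1.02 in the low-share libraries. At 4 weeks the libraries without IMR had 2.81 and 3.01 CPM and those with IMR had 9.34 to 13.6 CPM. The share slope of these 4 genes had an edgeR adjusted p of 0.757 to 0.868, so that none was called for the share.

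**Figure D5:**
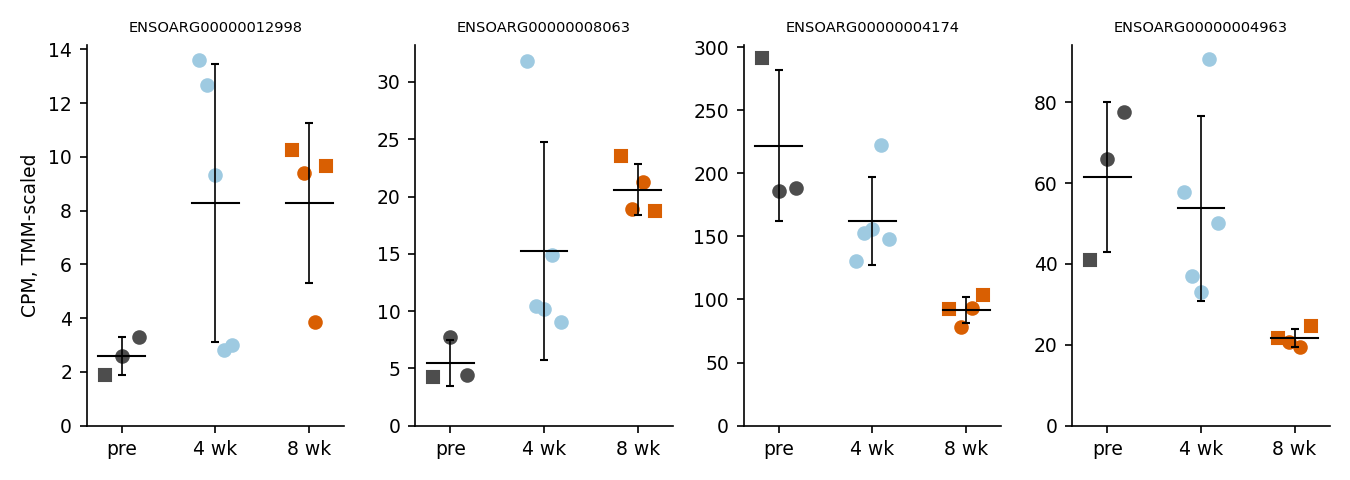
CPM (vertical axis, from 0) of the 4 named genes in each library by time; squares are the 3 high-share libraries, circles the others, and lines with bars are the mean ± SD (n = 3 pre-MI, 5 at 4 weeks, 4 at 8 weeks). In each panel the 8-week libraries lie wholly on one side of the pre-MI libraries, and for ENSOARG00000012998 the lowest of them, 3.86 CPM, is close to the highest pre-MI library at 3.29 CPM. The genes were chosen by the smallest p for this difference, which favours such separation.

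The leak was then set aside or taken alone. At 8 weeks each subgroup, with and without IMR, held 1 high-share and 1 low-share library, so the share was divided evenly between them. For leaflets without IMR against pre-MI, edgeR passed 0 genes and 329 (2.22%) were under an unadjusted p of 0.05, 165 with higher and 164 with lower values. For leaflets with IMR against pre-MI, edgeR passed 0 genes and 271 (1.83%) were under it, 213 with higher and 58 with lower values, while DESeq2 passed 3. Both subgroups were compared with the same 3 pre-MI libraries. Without pre-MI replicate 2 the count without IMR was 875. Leaving out an 8-week library leaves 1 library in its subgroup, which is then assumed to vary like the other groups. On those terms the count without IMR was 1011 without 8-week replicate 3, which leaves the library with the highest share, and the count with IMR was 160 without 8-week replicate 1 and 528 without 8-week replicate 2.

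The direct test of IMR against no IMR at 8 weeks, 2 libraries against 2, passed 0 genes in edgeR, while 354 (2.39%) were under an unadjusted p of 0.05, 308 with higher and 46 with lower values in leaking valves. Over all genes tested 47.6% had higher values in leaking valves, and the excess of higher values among those 354 varied with the setting. With the share in the model 0 passed and 413 (2.79%) were under it, 296 higher and 117 lower. A block on the replicate number gave 179 higher and 160 lower. Leaving out 1 library, which leaves 1 in its subgroup, gave 336 higher and 265 lower without replicate 3 (no IMR), 290 and 166 without replicate 4 (no IMR), 102 and 85 without replicate 1 (IMR), and 491 and 106 without replicate 2 (IMR). For the 4 named genes the difference between the subgroups was -0.21 to 0.54 on the log2 scale, with an edgeR adjusted p of 1 for each. Intervals were wide, with a median half-width of 1.24, and 11.8% of genes had an interval within a 2-fold change, so that the absence of calls does not show that leaflets with and without a leak were alike.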

How the data were processed

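Poly-A RNA of 12 anterior leaflets, 30 mg of tissue each with an RNA integrity number above 7.1, was sequenced, per the labels' protocols. The authors deposited unnormalized counts of 25197 Ensembl sheep genes in 1 table with a column for each animal. The submitters' processing notes name Bowtie2 2.2.3, TopHat2 2.0.12 and HTSeq 0.6.1. The genome build, annotation, strand setting and treatment of shared reads are not given in the sources used here, so overlapping, antisense and near-identical genes are uncertain.

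Groups are the labels' time and regurgitation (5 groups), and replicate numbers are those in the titles. Counts were filtered with filterByExpr (14804 genes), scaled with TMM and fitted with edgeR 4.0.16 (R 4.3.3; robust quasi-likelihood, 7 residual degrees of freedom), with Benjamini-Hochberg adjustment over all genes at 0.05. The 8-week value is the mean of both 8-week groups minus pre-MI. Standard errors are the fold change divided by the square root of F. The models were tested on simulated data. Alternatives used DESeq2 1.42.0, limma 3.58.1 and other settings. Every pair of the 7 libraries differed beyond sampling noise (chi-square of at least 60.6 per degree of freedom), so none was counted as a duplicate. Named genes are the 2 with the smallest p in each direction. The members, lists and settings were chosen with earlier results of these data known. The planned lists of named genes and cell type markers were not analysed here, since no ID matched a name. The genes 10-fold apart, the share fit of the 7 libraries alone and the omissions of low-share libraries were added after seeing the data.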

Additional observations from a re-analysis of the deposited data

Results flagged for a closer look

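In 25 comparisons of the 8-week libraries with one another (library totals, genes with counts, shares, the 4 named genes and the 15 tested low-numbered IDs), 1 library stood apart by Dixon's 95% critical value; chance gives about 1 in 20. ENSOARG00000012998 had 3.86 CPM in 8-week replicate 3 without IMR, while the other 8-week libraries had 9.40 to 10.3 CPM, with a gap of 0.867 of the range. This library also had the lowest share of the 37 lowest-numbered IDs at 8 weeks, 0.954%, while 8-week replicate 2 with IMR had 9.40 CPM at a share of 2.04%. The part of the share in this value was not tested. Without that library the log2 fold change of this gene was 1.91.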

How the results depend on the processing

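For 8 weeks against pre-MI, DESeq2 passed 2 genes (1 higher, 1 lower) and for 8 weeks with IMR against pre-MI 3; the cause was not tested. Limma voom with and without quality weights, RLE and upper quartile factors, other filters, no robust dispersion, fits of the 7 libraries, 3 time groups and the share settings passed 0. Leaving out 1 library gave 0 genes for each comparison between groups, the share-adjusted and low-share ones included. The 4 named genes kept their direction under all 22 settings. The number of genes going with the share was 0 to 711 on leaving out 1 library, and 416 when only genes averaging 5 CPM or more were tested. The log2 odds difference of the share was -0.0740 (without pre-MI replicate 4) to 1.31 on leaving out 1 library. The unadjusted count for 8 weeks against pre-MI was 534 with quality weights and 164 among genes averaging 5 CPM or more, a smaller set. That filter gave 202 for 8 weeks without IMR and 170 with IMR. With the share as 2 levels in the 7 libraries it was 538 in place of 299. In the low-share libraries it was 214 without 8-week replicate 3. A block on the replicate number passed 0 genes, with 203 at an unadjusted p under 0.05, and changed no call. Same-numbered pre-MI and 8-week libraries deviated from their group means with a correlation of -0.58 to 0.37 over 3 pairs. All pairs that joined a high-share with a low-share library had a negative correlation, whether or not their numbers matched, and all other pairs a positive one. These values therefore cannot show whether the numbers pair the libraries. Low counts and 4 against 3 animals limit what could be detected: 0.328% of genes under 1 CPM had intervals within 2-fold.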
